A study of Mus musculus with 45 samples.

Results

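Hepatic gene expression at 3 µg/kg TCDD, the most toxic of the chlorinated dioxins, was compared with the sesame oil vehicle across all genes. The comparison used the 5 livers whose labels give a dose of 3 µg/kg and the 5 livers labelled as vehicle, 10 of the 45 livers in the series. All came from female C57BL/6 mice, described in the labels as ovariectomized, which received TCDD in oil or oil alone by gavage every 4 days over 28 days. The treatment label words the gavage as both daily and every 4 days, and the other label and the study's methods give every 4 days. The study's methods place the first dose at postnatal day 28 and do not mention ovariectomy. Each library was made from the RNA of whole liver of 1 mouse, and the labels give no treatment other than TCDD that separates the groups. The series was designed to follow the hepatic response to TCDD over dose by RNA-Seq, and the 5 livers at 1 µg/kg and the 5 at 10 µg/kg served as the neighbouring doses.

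TCDD binds the aryl hydrocarbon receptor (AhR), a ligand-activated transcription factor of the cytosol. The bound receptor enters the nucleus, pairs with ARNT and binds dioxin response elements, whose core reads GCGTG. Its best known targets are xenobiotic-metabolizing enzymes such as the Cyp1 family of cytochromes P450, and genes that restrain the receptor, such as the AhR repressor Ahrr and the ADP-ribosyltransferase Tiparp. Sustained AhR activation in rodent liver is known for fat accumulation, inflammation, wasting and altered circulating thyroid hormone. In bulk liver RNA, a change in the number of cells of a type cannot be told apart from a change in RNA per cell.

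The promoters of 4 called AhR targets are given because each held the core element within the 250 bases before the gene's start, which is the window shown, 5′ to 3′ on the gene's strand. Sequences are from RefSeq on GRCm38.p6, and capitals mark GCGTG or its reverse complement CACGC. Cyp1a1 lies on the plus strand, with this window at chr9:57697363-57697612 and the core at -54. Cyp1b1 lies on the minus strand, with the window at chr17:79715062-79715311 and the core at -76. Ahrr lies on the minus strand at chr13:74292332-74292581, with cores at -107, -82 and -27. Tiparp lies on the plus strand at chr3:65528197-65528446, with the core at -170.
Cyp1a1: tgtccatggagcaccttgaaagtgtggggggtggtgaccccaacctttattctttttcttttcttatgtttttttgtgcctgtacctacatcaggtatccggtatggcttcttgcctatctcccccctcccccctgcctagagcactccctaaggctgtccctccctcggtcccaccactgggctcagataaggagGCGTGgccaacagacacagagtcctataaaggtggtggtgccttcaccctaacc
Cyp1b1: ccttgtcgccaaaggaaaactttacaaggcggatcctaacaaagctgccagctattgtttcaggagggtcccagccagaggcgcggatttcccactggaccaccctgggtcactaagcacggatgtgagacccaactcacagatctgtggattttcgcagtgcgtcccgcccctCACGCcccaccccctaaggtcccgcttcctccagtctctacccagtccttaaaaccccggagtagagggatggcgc
Ahrr: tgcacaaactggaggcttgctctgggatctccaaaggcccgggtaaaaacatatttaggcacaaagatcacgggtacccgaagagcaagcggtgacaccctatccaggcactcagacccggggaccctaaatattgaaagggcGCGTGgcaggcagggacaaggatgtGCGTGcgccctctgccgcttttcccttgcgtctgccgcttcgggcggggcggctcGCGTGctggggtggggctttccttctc
Tiparp: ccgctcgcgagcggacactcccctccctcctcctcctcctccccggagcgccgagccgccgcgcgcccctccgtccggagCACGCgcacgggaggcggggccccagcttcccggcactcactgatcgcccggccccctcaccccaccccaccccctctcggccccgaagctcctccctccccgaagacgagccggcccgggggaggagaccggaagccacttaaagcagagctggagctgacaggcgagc

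The core is short and frequent in promoters, so its presence alone marks few genes out. It was found on either strand in 28.16% of all 32851 promoters of this length. Of the 11932 genes tested that had a promoter entry, 46.51% held it in any of their promoters. The first share was counted by promoter and the later ones by gene, so the first is not directly comparable with them. Of the 275 genes with an entry that were called higher at 3 µg/kg, 33.45% held it, and of the 94 called lower, 28.72%. Among the 8 AhR target genes that were called, 4 held the core in this window, beside 3 of the 9 targets with an entry that were not called. The window covers only the bases next to the start, and Cyp1a2, Nqo1, Cd36 and Ugt1a7c were the called targets without the core in it.

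Of 17464 genes tested, 519 were differentially expressed genes (DEGs), with both a change of 2-fold or more and an adjusted p under 0.05, which is 2.97% of genes. The adjusted p alone was passed by 1316 genes (7.54%). 376 DEGs (2.15%) were higher and 143 (0.819%) were lower at 3 µg/kg, by edgeR's quasi-likelihood test with Benjamini-Hochberg adjustment over all genes. More than 8-fold changes were seen in 47 higher and 12 lower DEGs, and more than 4-fold changes in 120 and 42, while the median log2 fold change was 1.58 among the higher and -1.57 among the lower DEGs. Low expression was common among the increases, with 199 of the 376 under 1 normalised read count per 1000000 reads (CPM) on average in the vehicle livers. The CPM of the groups did not overlap for 298 of the 376 higher and 104 of the 143 lower DEGs, beside 4.6% of all genes with higher and 3.36% with lower levels that did not overlap. The median log2 fold change of all genes was 0.01. Scaling by library totals alone moved it to 0.10, and the share of calls that were higher from 72.4% to 82.3%. In the following, values in each liver are given in the order of replicates 1 to 5, errors of log2 fold changes are SE, n is 5 livers per group, and the adjusted p is that of edgeR unless stated. Counts of called list members stand beside the 2.15% of all genes called higher and the 0.819% called lower. A list with few calls can lie near these shares.

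**Figure D1:**
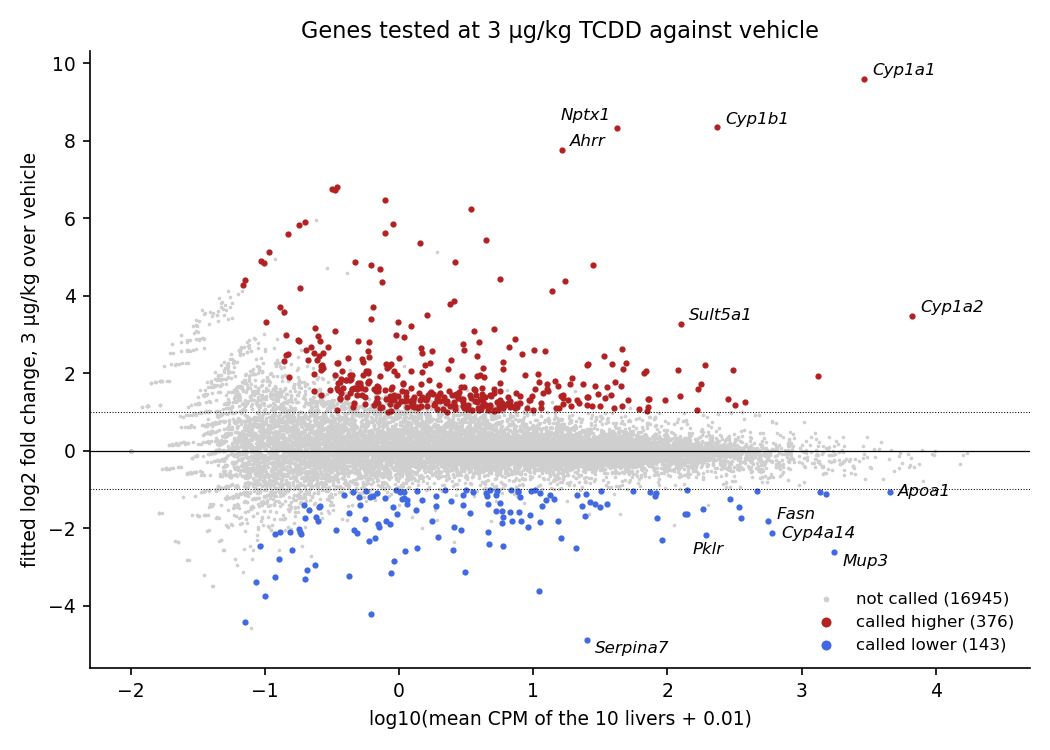
Each point is 1 of the genes tested, with log10 of the mean CPM of the 10 livers plus 0.01 on the x axis and the fitted log2 fold change at 3 µg/kg over vehicle on the y axis. Dotted lines mark a fold change of 2. Red points are the 376 genes called higher and blue points the 143 called lower, and Cyp1a1 at 9.60 and Serpina7 at -4.88 lie at the ends of the range among well-expressed genes.

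Reads on genes ranged from 14619385 to 20624724 in the vehicle livers and from 13174364 to 47459314 at 3 µg/kg, with medians of 17045747 and 28119761. The 6 hepatocyte markers summed to between 111072 and 147323 CPM with vehicle and between 107269 and 132108 CPM at 3 µg/kg, so the labelled tissue was as stated in all 10 livers. Replicate 1 at 3 µg/kg stood apart from the other 4 treated livers in its leukocyte transcripts. Its 5 neutrophil markers summed to 14.4 CPM beside 2.96 to 3.50 CPM in the other treated livers and 0.954 to 2.05 CPM with vehicle. Without this liver 248 genes (1.42%) were called higher and 147 (0.842%) lower. Of the 376 higher DEGs 240 kept their call without it and 136 lost it, and of the 143 lower DEGs 120 kept it and 23 lost it. For the leukocyte, immune, matrix and cell cycle lists below, the counts without it are given as well.

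The AhR target battery held the largest increase at 3 µg/kg, that of Cyp1a1. Of its 21 genes tested, 8 rose and 0 fell, with a median log2 fold change of 0.97 beside 0.01 over all genes, and the same counts were obtained without replicate 1 at 3 µg/kg. Cyp1a1, which oxidizes polycyclic aromatic compounds, is the classical marker of AhR activity. Its levels were 2.90, 1.34, 5.49, 16.6 and 11.1 CPM with vehicle and 5640.2, 6184, 6436, 5751 and 5242 CPM at 3 µg/kg. All treated livers lay far above all vehicle livers, among which replicates 4 and 5 were the highest. The increase was 774-fold (log2 fold change 9.60 ± 0.82, edgeR adjusted p = 1.2e-11). Cyp1a2, a P450 of hepatocytes that also binds TCDD itself, started from a much higher level, with 1040.3, 942, 1094, 1220.5 and 1228 CPM with vehicle and 12369.5, 13526, 12414, 12840.3 and 9904 CPM at 3 µg/kg. The groups did not overlap and the increase was 11.1-fold (log2 fold change 3.47 ± 0.14, edgeR adjusted p = 8.3e-22).

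Cyp1b1, the P450 of the family that is otherwise expressed mainly outside hepatocytes, measured 0.849, 0.636, 0.616, 2.48 and 2.48 CPM with vehicle and 384, 491, 514, 494 and 468 CPM at 3 µg/kg, a rise of 324-fold (log2 fold change 8.34 ± 0.67, edgeR adjusted p = 1.8e-12). Ahrr, which competes with the receptor for ARNT, measured 0.142, 0.127, 0.0616, 0.0619 and 0.303 CPM with vehicle and 36.7, 30.1, 30.6, 34.4 and 32.2 CPM at 3 µg/kg (log2 fold change 7.75 ± 0.49, edgeR adjusted p = 1.7e-15). Both genes were close to silent in the vehicle livers and held narrow ranges in the treated ones, so neither group of values came near the other. Tiparp, which modifies the receptor and lowers its activity, had 13.7, 16.5, 15.5, 11.7 and 11.02 CPM with vehicle and 34.2, 35.2, 63.1, 43.1 and 42.9 CPM at 3 µg/kg, and replicate 3 was the highest treated liver (log2 fold change 1.68 ± 0.17, edgeR adjusted p = 1.6e-09). Nqo1, a quinone reductase with both dioxin and antioxidant response elements, ranged from 13.3 to 22.6 CPM with vehicle and 30.6 to 47.5 CPM at 3 µg/kg (log2 fold change 1.16 ± 0.18, edgeR adjusted p = 1.7e-05). Cd36, a fatty acid translocase, ranged from 109.8 to 232 CPM with vehicle and 340.4 to 455 CPM at 3 µg/kg (log2 fold change 1.34 ± 0.18, edgeR adjusted p = 7.5e-07). None of these ranges overlapped. Ugt1a7c, a glucuronosyltransferase of the Ugt1a locus, rose from a mean of 0.181 ± 0.0955 CPM (SD) to 0.993 ± 0.222 CPM (log2 fold change 2.41 ± 0.41, edgeR adjusted p = 8.1e-05).

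**Figure D2:**
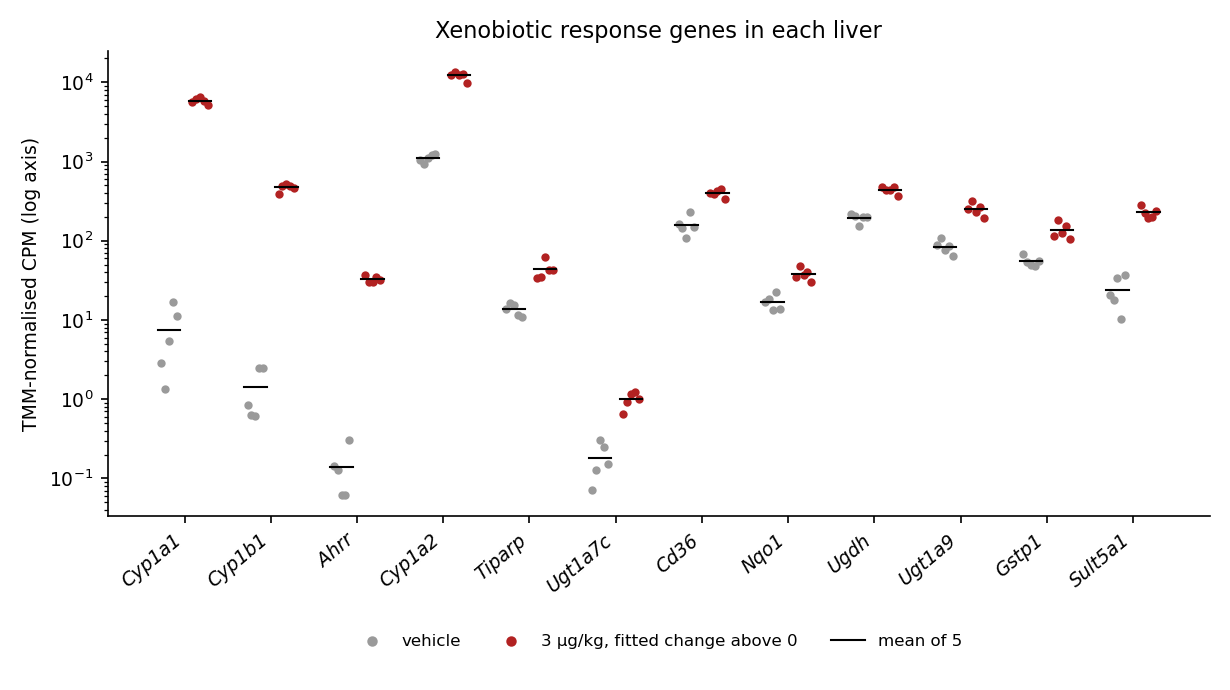
TMM-normalised CPM on a log axis for 12 xenobiotic response genes, with a point for each of the 5 vehicle livers in grey and the 5 livers at 3 µg/kg in red, and bars at the means. In each of the 12 genes the lowest treated liver lies above the highest vehicle liver, with the widest separation in Cyp1a1, Cyp1b1 and Ahrr.

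Other battery members stayed below the 2-fold criterion or were close to undetected. Xdh, xanthine oxidoreductase, had a log2 fold change of 0.97 ± 0.10 with an adjusted p of 5.1e-09 and no overlap between the groups, 177 to 228 CPM with vehicle and 354 to 431 CPM at 3 µg/kg. Ugt1a6a, a phenol glucuronosyltransferase, was at 0.75 ± 0.11 with an adjusted p of 2e-06, also without overlap. Aldh3a1, an aldehyde dehydrogenase that is inducible in other tissues and cells, had 0 reads in the 5 vehicle livers and between 0 and 0.140 CPM at 3 µg/kg, which is at the limit of detection, and its adjusted p was 0.07. The receptor and its partners were measured as a separate list of 9 genes, of which edgeR called 0, while 2 had an unadjusted p under 0.05 and DESeq2 called 0. Ahr itself ranged from 60.1 to 97.4 CPM with vehicle and 65.0 to 117 CPM at 3 µg/kg (log2 fold change 0.32 ± 0.21, edgeR adjusted p = 0.4), and Arnt from 47.4 to 65.2 CPM with vehicle and 56.3 to 65.4 CPM at 3 µg/kg (log2 fold change 0.05 ± 0.14, edgeR adjusted p = 0.88). Their groups overlapped.

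Of 21 glucuronosyltransferase and related genes, which conjugate substrates with glucuronic acid, 4 rose and 0 fell, with a median log2 fold change of 0.35 and 17 members above 0. Ugdh, which makes the UDP-glucuronic acid all these enzymes consume, measured 218, 205, 153, 201 and 197 CPM with vehicle and 470.0, 436, 436, 474 and 372 CPM at 3 µg/kg (log2 fold change 1.17 ± 0.15, edgeR adjusted p = 2.9e-07). Ugt1a9 ranged from 65.0 to 107 CPM with vehicle and 194 to 321 CPM at 3 µg/kg (log2 fold change 1.58 ± 0.20, edgeR adjusted p = 1.9e-07). Neither range overlapped between the groups. Ugt1a8 had 3 reads in the 5 vehicle livers and 31 at 3 µg/kg, a ratio of 6.18 (95% counting interval 1.93 to 31.6), and was called in 5 of the 10 fits that each left out 1 liver. Ugt1a genes share their last exons, so reads there could be assigned only in part, and Ugt1a8, Ugt1a9 and Ugt1a7c are uncertain as to their split.

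Among 23 glutathione S-transferases 2 rose and 1 fell. Gstp1, of the pi class, ranged from 47.8 to 68.3 CPM with vehicle and 104 to 183 CPM at 3 µg/kg (log2 fold change 1.32 ± 0.16, edgeR adjusted p = 8.3e-08), and Gstp2, its near-identical neighbour, from 0.0505 to 0.708 CPM with vehicle and 0.804 to 1.64 CPM at 3 µg/kg (log2 fold change 2.25 ± 0.51, edgeR adjusted p = 0.0034). Reads shared by the pair could not be counted for either, so their separate levels are uncertain. Gsto2, of the omega class, fell and was low throughout, 0.123 to 0.637 CPM with vehicle and 0.0321 to 0.146 CPM at 3 µg/kg (log2 fold change -1.81 ± 0.46, edgeR adjusted p = 0.0095). Of 18 cytosolic sulfotransferases 1 rose and 2 fell. Sult5a1, whose substrates are poorly known, measured 20.5, 18.1, 33.7, 10.4 and 36.4 CPM with vehicle and 286, 227, 196, 201 and 238 CPM at 3 µg/kg, a rise of 9.60-fold (log2 fold change 3.26 ± 0.30, edgeR adjusted p = 1.1e-10), and its lowest treated liver was above its highest vehicle liver. Sult2a7, of the family that sulfates bile acids and steroids, measured 47.8, 21.2, 21.8, 44.1 and 43.3 CPM with vehicle and 5.85, 7.47, 6.55, 9.41 and 1.90 CPM at 3 µg/kg (log2 fold change -2.53 ± 0.51, edgeR adjusted p = 0.00074), and its closely related paralogs make its level uncertain. Sult1c2 also fell (log2 fold change -1.03 ± 0.27, edgeR adjusted p = 0.012), but was not called in 4 of the fits that each left out 1 liver, replicate 3 or 5 at 3 µg/kg or vehicle replicate 2 or 3, with log2 fold changes of -0.98 to -0.84. Aldh3b1, which oxidizes aldehydes from lipids, was the called member of 27 aldehyde and alcohol oxidation genes and rose, ranging from 0.924 to 2.05 CPM with vehicle and 3.31 to 5.70 CPM at 3 µg/kg (log2 fold change 1.51 ± 0.23, edgeR adjusted p = 1.5e-05).

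Of 47 drug-metabolizing P450s of the Cyp2 and Cyp3a families, 2 were called higher and 2 lower (4.26% each), beside 2.15% and 0.819% of all genes. Their median was -0.03, and without replicate 1 at 3 µg/kg 1 was called higher and 2 lower. Cyp2d9, a steroid 16-alpha-hydroxylase that predominates in male liver, measured 88.9, 76.4, 93.4, 65.2 and 92.1 CPM with vehicle and 312, 326, 244, 251 and 244 CPM at 3 µg/kg and did not overlap (log2 fold change 1.73 ± 0.28, edgeR adjusted p = 3e-05). Cyp2a22 measured 122, 114, 117, 143 and 148 CPM with vehicle and 34.5, 46.3, 45.8, 48.2 and 19.7 CPM at 3 µg/kg (log2 fold change -1.73 ± 0.33, edgeR adjusted p = 0.00039) and Cyp3a59 ranged from 37.6 to 61.1 CPM with vehicle and 11.3 to 23.9 CPM at 3 µg/kg (log2 fold change -1.37 ± 0.22, edgeR adjusted p = 3.6e-05). Both fell without overlap of the groups. Cyp2d12 rose from levels under 1 CPM (log2 fold change 1.48 ± 0.42, edgeR adjusted p = 0.023) and was called in 5 of the 10 fits that left out 1 liver, but not without replicate 1 at 3 µg/kg (1.26, edgeR adjusted p = 0.072). The principal inducible members did not pass. Cyp2b10, the marker of the receptor CAR, ranged from 35.2 to 50.5 CPM with vehicle and 50.02 to 91.0 CPM at 3 µg/kg (log2 fold change 0.80 ± 0.36, edgeR adjusted p = 0.19), and Cyp3a11, the marker of PXR, from 3081 to 4298 CPM with vehicle and 2843 to 4362 CPM at 3 µg/kg (log2 fold change 0.05 ± 0.17, edgeR adjusted p = 0.92).

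Of 15 Cyp4 fatty acid hydroxylases 1 fell and 1 rose. Cyp4a14, a microsomal omega-hydroxylase controlled by PPARα, measured 1112, 968, 987, 822 and 992 CPM with vehicle and 56.8, 404, 206, 339 and 105 CPM at 3 µg/kg, a fall of 4.39-fold (log2 fold change -2.13 ± 0.44, edgeR adjusted p = 0.0012). The vehicle livers lay within a narrow range, and the treated livers spread from 56.8 to 404 CPM below it, with replicates 1 and 5 the lowest. Cyp4a12a, a male-predominant hydroxylase with close paralogs, rose, ranging from 0.0619 to 0.495 CPM with vehicle and 0.6003 to 2.85 CPM at 3 µg/kg (log2 fold change 2.39 ± 0.60, edgeR adjusted p = 0.0091).

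The Nrf2 antioxidant genes showed 0 calls among 30 by edgeR, while 11 had an unadjusted p under 0.05 and DESeq2 called 0, and their median log2 fold change was 0.10. The adjusted p alone was passed by 3 members that were higher and 1 that was lower. Nqo1, which was called, was counted among the AhR targets and not in this list. Nfe2l2, which encodes Nrf2, ranged from 79.03 to 93.9 CPM with vehicle and 131 to 156 CPM at 3 µg/kg without overlap, at 0.68 ± 0.09 with an adjusted p of 6.7e-07, below the 2-fold criterion. Gclc, which limits glutathione synthesis, was at 0.32 (edgeR adjusted p = 0.44), and Hmox1, heme oxygenase, at 0.69 (edgeR adjusted p = 0.15) in log2. Bile acid synthesis and conjugation also had 0 calls among 22 genes by edgeR, while 3 had an unadjusted p under 0.05 and DESeq2 called 0. Cyp7a1, the rate-limiting enzyme of bile acid synthesis, spread widely within both groups, 247, 204, 510.1, 744 and 534 CPM with vehicle and 279.7, 549, 1127, 733 and 1113 CPM at 3 µg/kg (log2 fold change 0.76 ± 0.68, edgeR adjusted p = 0.58), and the groups overlapped. Cyp8b1, which directs synthesis to cholic acid, ranged from 107 to 192 CPM with vehicle and 41.1 to 126 CPM at 3 µg/kg (log2 fold change -0.56 ± 0.27, edgeR adjusted p = 0.22).

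Transporters moved in single members. Among 25 uptake transporters 2 rose and 1 fell. Slc10a2, the sodium-dependent bile acid transporter known from ileum and bile ducts, measured 1.98, 2.80, 2.77, 3.16 and 2.07 CPM with vehicle and 7.60, 6.29, 4.59, 5.41 and 14.2 CPM at 3 µg/kg (log2 fold change 1.58 ± 0.33, edgeR adjusted p = 0.0015), with replicate 5 the highest. The sodium-dicarboxylate transporters moved in opposite directions. Slc13a3 rose, ranging from 11.7 to 17.2 CPM with vehicle and 24.5 to 48.9 CPM at 3 µg/kg (log2 fold change 1.38 ± 0.23, edgeR adjusted p = 5.7e-05) and Slc13a2 fell, ranging from 1.602 to 2.63 CPM with vehicle and 0.129 to 0.476 CPM at 3 µg/kg (log2 fold change -2.59 ± 0.51, edgeR adjusted p = 0.00054). These genes did not overlap between the groups. Of 28 ABC efflux transporters 1 rose, Abcg1, which exports cholesterol from macrophages and other cells, from 2.97 to 5.24 CPM with vehicle and 7.18 to 14.2 CPM at 3 µg/kg (log2 fold change 1.29 ± 0.24, edgeR adjusted p = 0.0003).

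Enzymes of fatty acid synthesis fell at 3 µg/kg. De novo lipogenesis converts citrate to fatty acids in the fed liver and stores them as triglyceride. Of its 34 genes tested, 4 fell and 0 rose, and the median log2 fold change was -0.62, with 28 of 34 members below 0. Leaving out 1 liver at a time gave between 4 and 6 calls, all lower. Fasn, fatty acid synthase, measured 1143, 644, 466, 1574 and 569 CPM with vehicle and 194, 282, 259.7, 171 and 348 CPM at 3 µg/kg (log2 fold change -1.81 ± 0.35, edgeR adjusted p = 0.00039). Acly, which supplies cytosolic acetyl-CoA, measured 638, 407, 288, 881 and 304 CPM with vehicle and 221, 197, 171, 131 and 191 CPM at 3 µg/kg (log2 fold change -1.47 ± 0.28, edgeR adjusted p = 0.0004). All treated livers were below all vehicle livers for both genes, although vehicle replicates 3 and 5 were well below vehicle replicates 1 and 4. Elovl6, the fatty acid elongase, ranged from 123 to 333 CPM with vehicle and 46.3 to 86.0 CPM at 3 µg/kg (log2 fold change -1.64 ± 0.36, edgeR adjusted p = 0.0025). Pnpla3, a lipid droplet hydrolase that rises with feeding, measured 16.6, 2.99, 5.12, 20.5 and 5.15 CPM with vehicle and 0.804, 1.99, 1.998, 0.709 and 3.05 CPM at 3 µg/kg (log2 fold change -2.47 ± 0.60, edgeR adjusted p = 0.0067), and vehicle replicate 2 lay just below the highest treated liver.

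Further lipogenic genes were lower without reaching the criteria. Acaca, acetyl-CoA carboxylase, ranged from 38.4 to 72.4 CPM with vehicle and 24.6 to 31.8 CPM at 3 µg/kg without overlap (log2 fold change -0.92 ± 0.17, edgeR adjusted p = 0.00018), Srebf1, which encodes the lipogenic transcription factor SREBP1, was at -0.66 (edgeR adjusted p = 0.054) in log2, and Scd1, the stearoyl-CoA desaturase, at -0.78 (edgeR adjusted p = 0.18). The summed level of the list was 23230.4, 19637, 11188, 24951 and 13549 CPM with vehicle and 8966, 12604, 11709, 11854 and 12859.5 CPM at 3 µg/kg, and the sums overlapped, with vehicle replicate 3 among the treated livers and vehicle replicate 5 just above them. Cholesterol synthesis and the LDL receptor had 0 calls among 27 genes by edgeR, while 10 had an unadjusted p under 0.05 and DESeq2 called 0, with a median of -0.27 and 25 of 27 members below 0.

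Carbohydrate genes changed at the entry and exit of glycolysis, and the isozymes of pyruvate kinase moved in opposite directions. Pklr, the liver isozyme of pyruvate kinase, measured 368, 287, 259, 431 and 228 CPM with vehicle and 61.7, 78.6, 59.01, 82.6 and 68.1 CPM at 3 µg/kg, a fall of 4.49-fold (log2 fold change -2.17 ± 0.24, edgeR adjusted p = 6.9e-09). Pkm, the isozyme of most other tissues, measured 7.08, 4.07, 4.93, 4.704 and 4.50 CPM with vehicle and 21.9, 17.4, 14.8, 15.3 and 16.5 CPM at 3 µg/kg, a rise of 3.40-fold (log2 fold change 1.77 ± 0.22, edgeR adjusted p = 2.4e-07). Neither isozyme overlapped between the groups, and both calls were kept with each of the 10 livers left out. Among 33 glycolysis genes 4 rose (12.1%) and 1 fell (3.03%), beside 2.15% and 0.819% of all genes. Without replicate 1 at 3 µg/kg, 2 were called higher and 1 lower. The list median was -0.08, with 19 members below 0. The summed level of the list was lower, at 6372 to 7506 CPM with vehicle and 4325 to 5150 CPM at 3 µg/kg. The hexokinases Hk1, Hk2 and Hk3, which supply most tissues other than hepatocytes, were among the rises. Hk1 ranged from 1.53 to 2.33 CPM with vehicle and 3.80 to 4.68 CPM at 3 µg/kg (log2 fold change 1.10 ± 0.27, edgeR adjusted p = 0.0075). Hk2 ranged from 0.928 to 1.70 CPM with vehicle and 1.74 to 4.44 CPM at 3 µg/kg (log2 fold change 1.06 ± 0.31, edgeR adjusted p = 0.025), and lost its call without replicate 1 at 3 µg/kg (1.00, adjusted p = 0.055), treated replicate 5 (0.84, adjusted p = 0.13), vehicle replicate 2 (1.04, adjusted p = 0.058) or vehicle replicate 4 (0.95, adjusted p = 0.079). Hk3, the isozyme of leukocytes, ranged from 1.78 to 3.29 CPM with vehicle and 3.12 to 12.1 CPM at 3 µg/kg (log2 fold change 1.43 ± 0.39, edgeR adjusted p = 0.018) and lost its call without replicate 1 at 3 µg/kg (1.16, adjusted p = 0.078) or vehicle replicate 2 (1.34, adjusted p = 0.056).

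**Figure D3:**
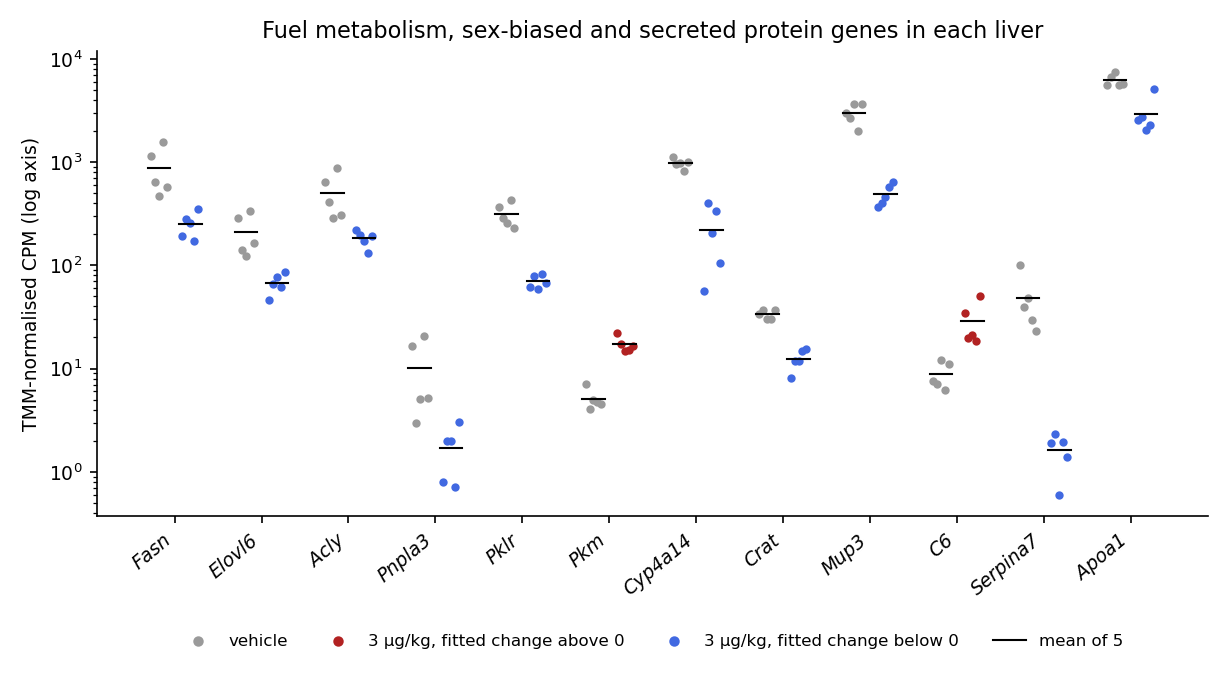
TMM-normalised CPM on a log axis for 12 genes of fuel metabolism, sex-biased expression and secreted proteins, with a point for each of the 5 vehicle livers in grey, the 5 livers at 3 µg/kg in blue for a fitted decrease and red for a fitted increase, and bars at the means. Pkm and C6 are the genes drawn in red, and Serpina7, Mup3 and Pklr are separated between groups by the widest gaps among those in blue.

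Gluconeogenesis and glycogen had 0 calls among 28 genes by edgeR, while 6 had an unadjusted p under 0.05 and DESeq2 called 0. Pck1, the cytosolic carboxykinase of gluconeogenesis, ranged from 1845 to 3937 CPM with vehicle and 1035 to 2422 CPM at 3 µg/kg (log2 fold change -0.60 ± 0.38, edgeR adjusted p = 0.39). Of 44 genes of fatty acid oxidation and ketogenesis 2 fell. Crat, carnitine acetyltransferase, measured 33.5, 37.2, 30.4, 30.1 and 36.8 CPM with vehicle and 8.04, 11.8, 11.9, 14.8 and 15.5 CPM at 3 µg/kg (log2 fold change -1.43 ± 0.28, edgeR adjusted p = 0.0005), and did not overlap. Acaa1b, a peroxisomal thiolase, ranged from 492 to 823 CPM with vehicle and 203 to 406 CPM at 3 µg/kg (log2 fold change -1.05 ± 0.19, edgeR adjusted p = 0.00025), and its fold change fell just short of 2 without replicate 1 or 5 at 3 µg/kg or without vehicle replicate 5 (log2 -0.94, -0.95 and -0.93). Cpt1a, which controls the entry of fatty acids to mitochondria, was at -0.02 (edgeR adjusted p = 0.97) in log2 and was not called.

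Of 38 genes that take up, store and hydrolyse lipid 3 rose and 0 fell, and 3 were called higher with each liver left out. Besides Cd36 these were Lpl, lipoprotein lipase, which releases fatty acids from circulating triglyceride, and Fabp12, a fatty acid binding protein. Lpl measured 28.7, 13.9, 13.7, 12.9 and 16.4 CPM with vehicle and 63.6, 38.9, 50.4, 65.3 and 49.1 CPM at 3 µg/kg (log2 fold change 1.64 ± 0.33, edgeR adjusted p = 0.00086). Fabp12 measured 0.142, 0, 0.123, 0 and 0.152 CPM with vehicle and 6.80, 4.06, 3.15, 3.29 and 16.8 CPM at 3 µg/kg (log2 fold change 6.24 ± 0.70, edgeR adjusted p = 1.3e-08), and treated replicate 5 was the highest. Both genes were above all vehicle values in all 5 treated livers. Among 22 apolipoprotein and VLDL assembly genes 1 fell. Apoa1, the main protein of HDL, measured 5579, 6608, 7474, 5546 and 5687 CPM with vehicle and 2541, 2730.1, 2055, 2304 and 5142 CPM at 3 µg/kg (log2 fold change -1.06 ± 0.23, edgeR adjusted p = 0.0015). Treated replicate 5 lay near the vehicle range, and without vehicle replicate 3 or treated replicate 3 or 4 the log2 fold change was between -1.0 and -0.96 and the gene was not called. Apob and Mttp, required for VLDL secretion, were at -0.13 (adjusted p = 0.6) and -0.25 (adjusted p = 0.097).

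Among 45 genes of amino acid breakdown and the urea cycle 2 fell, and 38 were below 0. Csad, which makes hypotaurine on the way to taurine, measured 30.3, 52.1, 32.5, 25.1 and 46.1 CPM with vehicle and 10.2, 9.77, 8.2003, 17.7 and 12.5 CPM at 3 µg/kg (log2 fold change -1.68 ± 0.33, edgeR adjusted p = 0.00062). Hao1, glycolate oxidase of peroxisomes, measured 283, 254, 316, 271 and 242 CPM with vehicle and 82.0, 89.4, 89.1, 98.3 and 121 CPM at 3 µg/kg (log2 fold change -1.51 ± 0.31, edgeR adjusted p = 0.0012). Both were lower in every treated liver than in any vehicle liver. By edgeR the lists of choline, methionine and folate metabolism (31 genes), tryptophan breakdown and NAD synthesis (22) and purine breakdown (19) held 0 calls, with 7, 10 and 8 members at an unadjusted p under 0.05 and 0 calls by DESeq2. Uox, urate oxidase, belonged to the last of these and ranged from 3163 to 4242 CPM with vehicle and 1991 to 2433 CPM at 3 µg/kg without overlap (log2 fold change -0.74 ± 0.18, edgeR adjusted p = 0.0067). In the purine list the adjusted p alone was passed by 6 members that were higher and 1, Uox, that was lower. The median of that list was 0.21. In eicosanoid synthesis 1 of 25 genes fell, Ptgds, the prostaglandin D synthase, from 2.54 to 4.90 CPM with vehicle and 0.838 to 1.19 CPM at 3 µg/kg (log2 fold change -1.98 ± 0.36, edgeR adjusted p = 0.00018). In retinoid metabolism 1 of 28 fell, Rdh9, a retinol dehydrogenase, at -1.09 (edgeR adjusted p = 0.024) in log2, and it was called in 5 of the 10 fits that left out 1 liver.

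Secreted proteins of hepatocytes included the strongest decrease of a well-expressed gene. Serpina7, thyroxine-binding globulin, measured 101, 39.9, 47.9, 29.6 and 22.995 CPM with vehicle and 1.90, 2.34, 0.596, 1.93 and 1.38 CPM at 3 µg/kg, a fall of 29.5-fold (log2 fold change -4.88 ± 0.43, edgeR adjusted p = 2.4e-11). The vehicle livers themselves spread over a wide range with replicate 1 the highest, and the lowest of them, at 22.995 CPM, was far above the highest treated liver, at 2.34 CPM. Mup3, one of the major urinary proteins that carry pheromones, measured 3019, 2686, 3692, 2004 and 3626 CPM with vehicle and 368, 403, 455, 574 and 647 CPM at 3 µg/kg (log2 fold change -2.62 ± 0.30, edgeR adjusted p = 2.5e-08), without overlap. Reads common to the many near-identical Mup genes were not counted, so the Mup level is that of sequence unique to the gene. Igfbp2, which binds insulin-like growth factors, was the called member of 22 genes of the growth hormone and IGF axis and measured 201, 159, 230.3, 164 and 269.8 CPM with vehicle and 47.3, 55.4, 70.1, 80.9 and 75.9 CPM at 3 µg/kg (log2 fold change -1.64 ± 0.28, edgeR adjusted p = 6.9e-05), while Igf1 was at -0.02 (edgeR adjusted p = 0.96) in log2.

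Of 38 sex-biased liver genes 4 rose and 3 fell. The increases included Cyp2d9, Cyp4a12a and C6, which are higher in male mouse liver. C6, a terminal complement component, measured 7.50, 7.06, 12.1, 6.25 and 11.02 CPM with vehicle and 34.3, 19.6, 20.99, 18.7 and 50.4 CPM at 3 µg/kg (log2 fold change 1.71 ± 0.35, edgeR adjusted p = 0.00085), and was also the called member of 41 complement and coagulation genes. Its groups did not overlap. The decreases were Mup3, which is also higher in males, Fmo2, a flavin monooxygenase, from 75.8 to 154 CPM with vehicle and 36.5 to 57.9 CPM at 3 µg/kg (log2 fold change -1.17 ± 0.28, edgeR adjusted p = 0.0062), and Hao2, a hydroxy acid oxidase, from 16.5 to 33.4 CPM with vehicle and 2.64 to 12.8 CPM at 3 µg/kg (log2 fold change -1.82 ± 0.55, edgeR adjusted p = 0.032), which was called in 4 of the 10 fits that left out 1 liver, but not without replicate 1 at 3 µg/kg (-1.86, edgeR adjusted p = 0.055). Genes that are higher in males were thus among both the increases and the decreases.

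Acute phase and iron genes were mostly lower or not called. Among 29 acute phase genes, Hp, the hemoglobin scavenger haptoglobin, measured 1911, 1683, 2070.1, 1541 and 2075 CPM with vehicle and 851, 956, 778, 826 and 994 CPM at 3 µg/kg (log2 fold change -1.07 ± 0.25, edgeR adjusted p = 0.0052), and Apcs, serum amyloid P, ranged from 87.7 to 129 CPM with vehicle and 39.5 to 68.8 CPM at 3 µg/kg (log2 fold change -1.08 ± 0.24, edgeR adjusted p = 0.0027). Saa3, a serum amyloid A that is also made by macrophages, rose instead, with 3.11, 2.48, 3.08, 3.22 and 2.68 CPM with vehicle and 12.1, 15.4, 3.89, 4.38 and 6.59 CPM at 3 µg/kg (log2 fold change 1.54 ± 0.32, edgeR adjusted p = 0.0011), and replicates 1 and 2 were the highest. Of 32 iron and heme genes, Hp and Hamp2 fell. Hamp2, a duplicate of the hepcidin gene, measured 512, 551, 296, 699 and 672 CPM with vehicle and 157, 289, 156, 136 and 72.2 CPM at 3 µg/kg (log2 fold change -1.75 ± 0.43, edgeR adjusted p = 0.0079), while Hamp, hepcidin itself, ranged from 586 to 878 CPM with vehicle and 411 to 874 CPM at 3 µg/kg and overlapped (log2 fold change -0.42 ± 0.29, edgeR adjusted p = 0.43). Hamp and Hamp2 share much sequence and their split is uncertain.

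Leukocyte genes were higher at 3 µg/kg, and their number depended on 1 liver. In the macrophage and leukocyte list 11 of 50 genes rose and 0 fell, with a median log2 fold change of 1.00 and 48 members above 0. Without replicate 1 at 3 µg/kg, 1 gene was called and the median was 0.72. The summed level was 489.6, 366, 438, 426 and 556 CPM with vehicle and 1381, 686, 562, 572 and 878 CPM at 3 µg/kg. Replicates 1 and 5 were the highest, and the lowest treated liver was only just above the highest vehicle liver. The 6 genes with the smallest adjusted p included Gpnmb, a glycoprotein of lipid-loaded macrophages, Clec7a, the beta-glucan receptor dectin-1, and Cybb, the oxidase of the phagocyte burst. Gpnmb measured 0.142, 0.127, 0, 0.248 and 0.152 CPM with vehicle and 2.48, 0.621, 0.771, 0.451 and 0.868 CPM at 3 µg/kg (log2 fold change 2.79 ± 0.72, edgeR adjusted p = 0.011), and was the gene that kept its call without replicate 1 (2.31, edgeR adjusted p = 0.046). Clec7a measured 5.87, 3.62, 2.65, 4.77 and 4.75 CPM with vehicle and 23.8, 7.06, 6.94, 8.63 and 11.7 CPM at 3 µg/kg (log2 fold change 1.405 ± 0.36, edgeR adjusted p = 0.012, without replicate 1 a value of 0.98, edgeR adjusted p = 0.089). Cybb ranged from 7.31 to 10.6 CPM with vehicle and 14.4 to 42.01 CPM at 3 µg/kg (log2 fold change 1.35 ± 0.36, edgeR adjusted p = 0.015, without replicate 1 a value of 1.06, edgeR adjusted p = 0.075). Itgax, the integrin CD11c, was at 1.63 (edgeR adjusted p = 0.011) and without replicate 1 at 1.26, edgeR adjusted p = 0.057.

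Of the markers of single leukocyte types edgeR called 1, which was lower. The 8 Kupffer cell and macrophage markers were all above 0, with sums of 199, 156, 190.2, 190.4 and 242 CPM with vehicle and 626, 306, 215, 236 and 398 CPM at 3 µg/kg, but edgeR called 0 of them, while 7 had an unadjusted p under 0.05 and DESeq2 called 0. Csf1r, the receptor of the macrophage growth factor, ranged from 20.6 to 30.3 CPM with vehicle and 32.3 to 105 CPM at 3 µg/kg without overlap (log2 fold change 1.12 ± 0.39, edgeR adjusted p = 0.069), and Clec4f, which is particular to Kupffer cells, was at 0.64 (edgeR adjusted p = 0.2) in log2. The 5 neutrophil markers tested had 0 calls by edgeR, while 4 had an unadjusted p under 0.05 and DESeq2 called 2, and Mpo, made in neutrophil precursors, had 0 reads in all vehicle livers and 1.97 CPM in treated replicate 1. The 6 T cell markers summed to 2.33, 1.72, 2.47, 2.48 and 2.78 CPM with vehicle and 5.11, 2.94, 3.33, 3.09 and 3.02 CPM at 3 µg/kg, again highest in treated replicate 1, with 0 called by edgeR, 0 at an unadjusted p under 0.05 and 0 by DESeq2. B and plasma cell markers summed to between 3.64 and 4.30 CPM with vehicle and between 3.57 and 8.33 CPM at 3 µg/kg. Of these 6 markers 4 were above 0, and DESeq2 called 1 higher and 0 lower. Mzb1, a plasma cell protein, was the marker edgeR called lower, at -1.55 (edgeR adjusted p = 0.036) in log2. It held 25 reads in the 5 vehicle livers and 13 in the 5 treated livers. It was called in 6 of the 10 fits that left out 1 liver, and DESeq2 did not call it (DESeq2 adjusted p = 0.066). The part of these cell types in the changes of single genes was not tested.

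**Figure D4:**
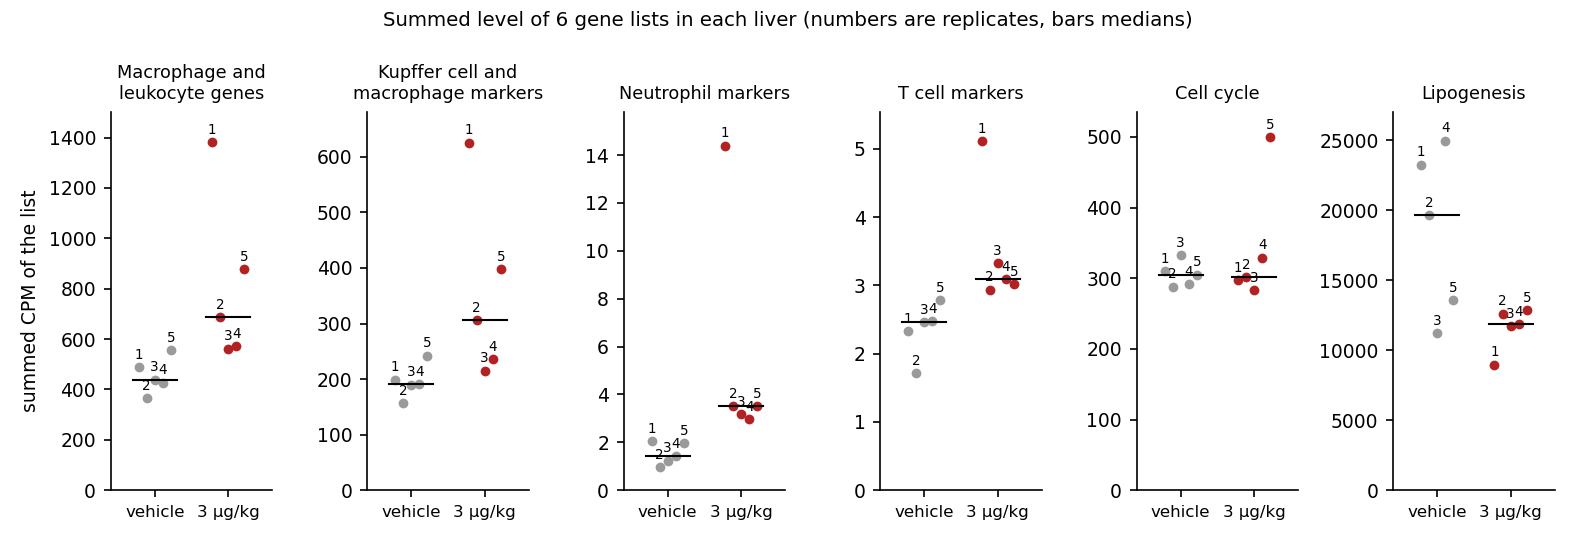
Summed CPM of 6 gene lists in each of the 5 vehicle livers (grey) and 5 livers at 3 µg/kg (red), with numbers giving the replicate and bars the medians. Replicate 1 at 3 µg/kg is the highest liver in the 4 leukocyte panels. Replicate 5 at 3 µg/kg is the highest in the cell cycle panel at 499.5 CPM, a sum that includes its single high Ccnd1 value. Vehicle replicate 3 falls among the treated livers in the lipogenesis panel, with vehicle replicate 5 just above them.

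Genes of antigen presentation by MHC class II rose at 3 µg/kg. Class II molecules display extracellular peptides to CD4 T cells and are made by dendritic cells, B cells and activated macrophages under the coactivator Ciita. Of 25 antigen presentation genes 8 rose and 0 fell, all of them class II genes, Cd74 or Ciita, with a median of 0.57. Without replicate 1 at 3 µg/kg, 6 were still called and the median was 0.23. H2-Aa, a class II alpha chain, measured 16.4, 11.6, 15.2, 18.9 and 22.2 CPM with vehicle and 174, 67.6, 41.7, 38.7 and 86.8 CPM at 3 µg/kg (log2 fold change 2.27 ± 0.40, edgeR adjusted p = 0.00012, without replicate 1 a value of 1.79, edgeR adjusted p = 0.0018). H2-Eb1, a beta chain, measured 10.3, 7.95, 9.24, 11.8 and 13.2 CPM with vehicle and 126, 46.3, 27.2, 22.8 and 63.04 CPM at 3 µg/kg (log2 fold change 2.43 ± 0.42, edgeR adjusted p = 9.3e-05, without replicate 1 a value of 1.92, edgeR adjusted p = 0.0014). H2-Ab1 and the invariant chain Cd74 were at 2.25 and 2.06 in log2 with all livers (adjusted p = 0.00016 and 0.0002), and at 1.78 and 1.59 without replicate 1 (edgeR adjusted p = 0.0023 and 0.0032). All 4 genes were higher in every treated liver than in any vehicle liver, with replicate 1 the highest and replicates 3 and 4 the lowest of the treated. Ciita rose, ranging from 0.354 to 0.740 CPM with vehicle and 1.37 to 4.603 CPM at 3 µg/kg (log2 fold change 2.03 ± 0.43, edgeR adjusted p = 0.0015, without replicate 1 a value of 1.69, edgeR adjusted p = 0.011). The peptide loading genes H2-DMa, H2-DMb1 and H2-Ob rose as well, of which H2-DMb1 (1.26, edgeR adjusted p = 0.069) and H2-Ob (1.08, edgeR adjusted p = 0.11) were not called without replicate 1. The class I genes of the list were not called. H2-K1 was at 0.00 (adjusted p = 1) and B2m at -0.10 (adjusted p = 0.71).

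The promoters of H2-Aa and H2-Eb1 are shown because both held the Y box of class II promoters, CTGATTGG or its reverse complement CCAATCAG, which is in capitals. Each window is the 250 bases before the start on the gene's strand, from RefSeq on GRCm38.p6. H2-Aa lies on the minus strand at chr17:34287824-34288073 with the box at -51, and H2-Eb1 on the plus strand at chr17:34305617-34305866 with the box at -62.
H2-Aa: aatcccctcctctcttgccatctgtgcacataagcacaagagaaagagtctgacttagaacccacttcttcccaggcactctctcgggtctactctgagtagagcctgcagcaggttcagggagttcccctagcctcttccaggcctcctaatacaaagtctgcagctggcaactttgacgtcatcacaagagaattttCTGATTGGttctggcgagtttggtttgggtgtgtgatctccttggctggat
H2-Eb1: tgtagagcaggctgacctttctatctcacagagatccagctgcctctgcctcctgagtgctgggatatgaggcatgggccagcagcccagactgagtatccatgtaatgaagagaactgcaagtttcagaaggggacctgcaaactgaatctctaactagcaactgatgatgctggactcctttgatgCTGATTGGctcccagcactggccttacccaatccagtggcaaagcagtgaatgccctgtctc

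On either strand the Y box was found in 3.829% of all promoters. Counted by gene, any promoter held it for 5.959% of genes tested with an entry, 6.909% of those called higher and 7.447% of those called lower. H2-Aa and H2-Eb1 were the 2 genes with it among the 5 called antigen presentation genes that had an entry.

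Of 50 chemokine and cytokine genes 13 rose and 0 fell, with a median of 0.92, and without replicate 1 at 3 µg/kg, 6 were called and the median was 0.73. Ccr1, a chemokine receptor of myeloid cells, measured 0.0708, 0.0636, 0, 0.124 and 0.101 CPM with vehicle and 0.731, 0.435, 0.421, 0.322 and 0.611 CPM at 3 µg/kg (log2 fold change 2.67 ± 0.49, edgeR adjusted p = 0.00019, without replicate 1 a value of 2.54, edgeR adjusted p = 0.00067). Ccl5, a chemokine that draws T cells and macrophages, ranged from 0.247 to 0.743 CPM with vehicle and 0.806 to 2.56 CPM at 3 µg/kg (log2 fold change 1.53 ± 0.39, edgeR adjusted p = 0.011), and kept its call with each liver left out. Il1b, the inflammasome cytokine, measured 0.283, 0.191, 0.185, 0.186 and 0.556 CPM with vehicle and 3.00, 0.994, 0.736, 1.16 and 1.38 CPM at 3 µg/kg (log2 fold change 2.24 ± 0.54, edgeR adjusted p = 0.0057, without replicate 1 a value of 1.85, edgeR adjusted p = 0.029). Tlr4, the lipopolysaccharide receptor, was called at 1.08 (edgeR adjusted p = 0.011), but not without treated replicate 1 (0.97, adjusted p = 0.035) or 5 (0.86, adjusted p = 0.072). Cxcl10, an interferon-inducible chemokine, was called at 1.34 (edgeR adjusted p = 0.016), but not without treated replicate 2 (1.00, adjusted p = 0.091) or vehicle replicate 1 (1.21, adjusted p = 0.051).

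Among 39 interferon-stimulated genes 4 rose and 0 fell, and 2 were called without replicate 1. Igtp, an interferon-inducible GTPase, measured 34.6, 36.2, 40.9, 41.5 and 49.8 CPM with vehicle and 136, 158, 53.2, 53.7 and 114 CPM at 3 µg/kg (log2 fold change 1.34 ± 0.26, edgeR adjusted p = 0.00036). Gbp4, a guanylate-binding protein, ranged from 4.77 to 7.33 CPM with vehicle and 10.3 to 34.1 CPM at 3 µg/kg (log2 fold change 1.53 ± 0.34, edgeR adjusted p = 0.0024). Both kept their calls with each liver left out. For Igtp, treated replicates 3 and 4 lay close to the vehicle livers and replicates 1, 2 and 5 well above them. Gbp2 was called at 1.23 (edgeR adjusted p = 0.02), but not without treated replicate 1 (1.02, adjusted p = 0.075) or 2 (1.00, adjusted p = 0.075). Tgtp1 was called at 2.34 (edgeR adjusted p = 0.013), but not without treated replicate 1 (1.72, edgeR adjusted p = 0.084).

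The calls among matrix genes were mostly increases. Of 35 collagen and matrix genes 2 rose (5.71%, beside 2.15% of all genes), Col9a2 and Thbs1, and without replicate 1 the former alone was called. Col9a2, a cartilage collagen, had 3 reads in the 5 vehicle livers and 160 at 3 µg/kg, a ratio of 31.9 (95% counting interval 10.7 to 156). Thbs1, thrombospondin, was called in 3 of the 10 fits that left out 1 liver (log2 fold change 1.38 ± 0.43, edgeR adjusted p = 0.041). Col1a1, the main fibrillar collagen of liver fibrosis, measured 8.21, 7.31, 4.99, 5.38 and 4.55 CPM with vehicle and 22.2, 8.34, 9.57, 7.15 and 12.1 CPM at 3 µg/kg (log2 fold change 0.95 ± 0.33, edgeR adjusted p = 0.064), highest in replicate 1, and the groups overlapped. Of 41 matrix proteases, inhibitors and fibrosis regulators 4 rose (9.76%) and 1 fell, and 2 rose and 1 fell without replicate 1. Mmp7, matrilysin, ranged from 0 to 0.142 CPM with vehicle and 0.129 to 0.736 CPM at 3 µg/kg (log2 fold change 2.84 ± 0.62, edgeR adjusted p = 0.0024). Adam11, a metalloprotease-like protein without catalytic activity, fell, ranging from 3.57 to 7.18 CPM with vehicle and 0.257 to 0.841 CPM at 3 µg/kg (log2 fold change -3.12 ± 0.34, edgeR adjusted p = 5.1e-09). Mmp13 and Lgals3 were called in 5 and 4 of the 10 fits that left out 1 liver. The 6 stellate cell markers summed to between 234 and 315 CPM with vehicle and between 279 and 408 CPM at 3 µg/kg.

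Of 50 cell cycle genes 2 rose, Top2a and Aurkb (4%, beside 2.15% of all genes), with a median over the list of 0.56 and 38 members above 0, and edgeR called 0 without replicate 1. DESeq2 called 4 higher and 1 lower, and 15 had an unadjusted p under 0.05. Top2a, the topoisomerase of dividing cells, measured 0.637, 0.636, 0.863, 0.866 and 0.606 CPM with vehicle and 4.16, 2.03, 1.68, 1.48 and 3.57 CPM at 3 µg/kg (log2 fold change 1.82 ± 0.59, edgeR adjusted p = 0.048) and was called in 2 of the 10 fits that left out 1 liver. Aurkb held 6 reads in the 5 vehicle livers and 53 at 3 µg/kg (log2 fold change 2.33 ± 0.74, edgeR adjusted p = 0.044). It was called in 1 of the 10 fits that left out 1 liver. Mki67, the proliferation marker, overlapped between the groups (log2 fold change 1.00 ± 0.58, edgeR adjusted p = 0.33). Ccnd1, cyclin D1, measured 112, 98.9, 121, 97.4 and 90.9 CPM with vehicle and 75.1, 77.5, 78.3, 120.3 and 259.9 CPM at 3 µg/kg (log2 fold change 0.23 ± 0.40, edgeR adjusted p = 0.81), and its single high value was that of treated replicate 5. Eda2r, a death receptor induced by p53, was the called member of 33 p53 and growth arrest genes and measured 0.212, 0.0636, 0, 0.186 and 0.303 CPM with vehicle and 1.68, 0.435, 0.631, 0.773 and 0.900 CPM at 3 µg/kg (log2 fold change 2.36 ± 0.56, edgeR adjusted p = 0.0051).

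Several functions held 0 calls by edgeR. In oxidative phosphorylation these were 49 genes with a median of -0.19 and 44 below 0, of which 18 had an unadjusted p under 0.05. The circadian clock had 22 genes, of which 0 had an unadjusted p under 0.05, the integrated stress response and hepatokines 37 with 8, endothelial genes 33 with 14, periportal genes 20 with 8 and reference genes 16 with 3. DESeq2 called 0 in each of these lists. Actb, beta-actin, was at 0.21 (edgeR adjusted p = 0.6) in log2, Per2, a clock repressor, at 0.18 (edgeR adjusted p = 0.88), and Atf4, the effector of the stress response, at -0.26 (edgeR adjusted p = 0.17). Among 32 nuclear receptors Hnf4g fell (log2 fold change -1.23 ± 0.37, edgeR adjusted p = 0.033) and was called in 5 of the 10 fits that left out 1 liver. Among 30 biliary, keratin and progenitor genes Prom1 rose (log2 fold change 1.41 ± 0.45, edgeR adjusted p = 0.043) and was called in 3 of the 10, but not without replicate 1 at 3 µg/kg (1.25, edgeR adjusted p = 0.11), while Krt19, the keratin of bile duct cells, was at 0.29 (edgeR adjusted p = 0.74). Of 21 pericentral genes Cyp1a2 and Slc1a4 rose. Slc1a4, a neutral amino acid transporter, was at 1.10 (edgeR adjusted p = 0.019) and was not called without vehicle replicate 3 (0.97, adjusted p = 0.069) or 5 (1.02, adjusted p = 0.059). Glul, glutamine synthetase of the last pericentral hepatocytes, was at -0.10 (edgeR adjusted p = 0.78).

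**Figure D5:**
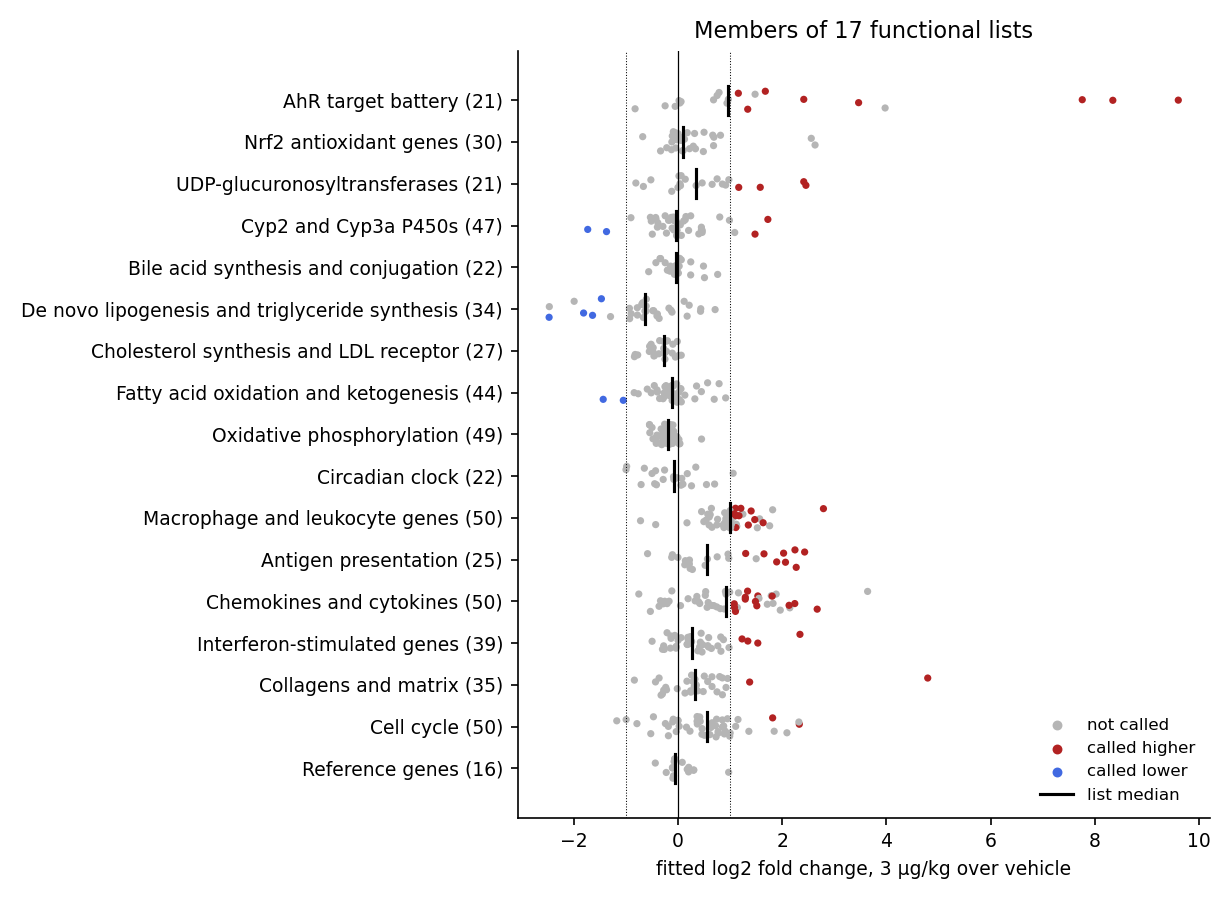
Fitted log2 fold change at 3 µg/kg over vehicle of each tested member of 17 functional lists, with the number of members in brackets, red for genes called higher, blue for genes called lower and a bar at the list median. Dotted lines mark a fold change of 2. The AhR battery reaches 9.60, lipogenesis lies to the left with a median of -0.62, and the macrophage list lies to the right with a median of 1.00, or 0.72 without replicate 1.

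Of the remaining markers, pancreatic acinar genes summed to between 15.0 and 21.4 CPM with vehicle and between 3.54 and 6.58 CPM at 3 µg/kg. Cela1, an elastase that liver also expresses, made up nearly all of this sum and fell, ranging from 14.5 to 21.2 CPM with vehicle and 2.93 to 6.15 CPM at 3 µg/kg (log2 fold change -1.86 ± 0.19, edgeR adjusted p = 2.8e-09), while Prss2, Pnlip and Cpa1 were at or near 0 in all livers. The 6 endothelial markers summed to between 128 and 169 CPM with vehicle and between 150.2 and 196 CPM at 3 µg/kg, and the adipocyte markers were near 0.

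Of the 519 DEGs 413 lay in none of the lists, and several of these were among the 12 largest increases. Nptx1, a secreted neuronal pentraxin, measured 0.0708, 0, 0.123, 0.743 and 0.303 CPM with vehicle and 79.9, 90.1, 97.0, 75.8 and 77.5 CPM at 3 µg/kg, a rise of 322-fold (log2 fold change 8.33 ± 0.55, edgeR adjusted p = 3.6e-15). Insl6, a relaxin-family peptide known from testis, measured 0.212, 0.0636, 0.185, 0.371 and 0.152 CPM with vehicle and 6.87, 10.3, 9.15, 9.60 and 7.75 CPM at 3 µg/kg (log2 fold change 5.45 ± 0.31, edgeR adjusted p = 8.9e-17). Both were near the limit of detection with vehicle and separated from it in every treated liver. Sorcs3, a sorting receptor of neurons, ranged from 0 to 0.127 CPM with vehicle and 1.80 to 3.73 CPM at 3 µg/kg (log2 fold change 5.35 ± 0.52, edgeR adjusted p = 3.7e-10), and Pkp1, a desmosomal plakophilin of stratified epithelia, from 0 to 0.309 CPM with vehicle and 3.07 to 7.04 CPM at 3 µg/kg (log2 fold change 4.88 ± 0.43, edgeR adjusted p = 2.4e-11). Where the vehicle livers held 1 to 3 reads in all, the ratio of reads is given with a counting interval. Ovol1, an epithelial transcription factor, had 1 vehicle read and 242 at 3 µg/kg, a ratio of 145 (95% counting interval 25.7 to 5740.2), with an adjusted p of 1.1e-10. Siglecf, a sialic acid-binding receptor known from eosinophils, had 2 and 234 reads, a ratio of 69.98 (95% counting interval 19.2 to 581), with an adjusted p of 1.1e-08. Scn8a, a neuronal sodium channel, had 2 and 119 reads, a ratio of 35.6 (95% counting interval 9.64 to 297), with an adjusted p of 1.8e-07. Igkv6-32, an immunoglobulin light chain segment with many relatives, had 2 and 187 reads, a ratio of 55.9 (95% counting interval 15.3 to 465), with an adjusted p of 6.3e-08.

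The largest decreases outside the lists were in genes of modest level. Chrna4, a nicotinic acetylcholine receptor subunit, measured 42.5, 10.7, 6.47, 31.5 and 11.1 CPM with vehicle and 3.51, 1.76, 0.981, 1.998 and 0.514 CPM at 3 µg/kg (log2 fold change -3.63 ± 0.66, edgeR adjusted p = 0.0002). Slc2a4, the insulin-responsive glucose transporter GLUT4, measured 0.708, 1.34, 0.678, 3.90 and 1.16 CPM with vehicle and 0.292, 0.186, 0.140, 0.129 and 0.129 CPM at 3 µg/kg (log2 fold change -3.16 ± 0.62, edgeR adjusted p = 0.00061), with vehicle replicate 4 the highest. Both genes spread widely with vehicle and were low in every treated liver. Adrb3, the beta-3 adrenoceptor, ranged from 5.88 to 10.97 CPM with vehicle and 0.902 to 2.27 CPM at 3 µg/kg (log2 fold change -2.40 ± 0.28, edgeR adjusted p = 3e-08), and Fam198a from 2.02 to 6.86 CPM with vehicle and 0.289 to 1.10 CPM at 3 µg/kg (log2 fold change -2.57 ± 0.52, edgeR adjusted p = 0.00086). The noncoding genes Gm13021 (log2 fold change -4.22 ± 0.61, edgeR adjusted p = 3.6e-06) and Gm12265 (log2 fold change -2.53 ± 0.34, edgeR adjusted p = 8.2e-07) fell too, and the latter is annotated as antisense, so its reads could not be told apart from those of a partner gene, since counting by strand was not stated. ENSMUSG00000097758 had no match in the annotation used for names and was at -2.86 (edgeR adjusted p = 0.0022). These 12 increases and 12 decreases, which include Cyp1a1, Cyp1b1, Ahrr, Fabp12, Serpina7, Mup3, Adam11, Slc13a2 and Sult2a7, kept their calls with each of the 10 livers left out.

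The step from 1 to 3 µg/kg was tested directly in the same fit, and 19 genes (0.109%) were called, 17 higher and 2 lower, while 1242 had an unadjusted p under 0.05. Of these 19, 18 were also among the 519 DEGs against vehicle. Tiparp was among them. Its mean was 13.7 ± 2.36 CPM (SD) with vehicle, 16.2 ± 4.10 at 1 µg/kg and 43.7 ± 11.6 at 3 µg/kg (log2 fold change of 3 over 1 µg/kg 1.42 ± 0.17, edgeR adjusted p = 1.7e-06). Ovol1 was almost absent at 1 µg/kg, at 0.0934 ± 0.0645 CPM, and reached 1.55 ± 0.659 CPM at 3 µg/kg (4.15 ± 0.42, edgeR adjusted p = 8.5e-08). Cyp1b1 rose from 109 ± 59.2 to 470.5 ± 50.9 CPM (2.11 ± 0.48, edgeR adjusted p = 0.047) and Ahrr from 12.7 ± 5.59 to 32.8 ± 2.76 CPM (1.34 ± 0.29, edgeR adjusted p = 0.027). Pkp1 (1.98 ± 0.31, edgeR adjusted p = 0.00039), Slc18a2, a vesicular monoamine transporter (1.96 ± 0.37, edgeR adjusted p = 0.009), Prr15 (1.28 ± 0.29, edgeR adjusted p = 0.046) and Ackr3, a scavenging chemokine receptor (1.28 ± 0.26, edgeR adjusted p = 0.013), rose over the same step. Cyp1a1 stood at 4592 ± 418 CPM at 1 µg/kg and 5851 ± 469 CPM at 3 µg/kg, and was not called between them (0.35 ± 0.56, edgeR adjusted p = 0.93).

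The step from 3 to 10 µg/kg gave 77 calls (0.441%), 59 higher and 18 lower, with 1691 genes at an unadjusted p under 0.05, and 28 of the 77 were among the 519 DEGs against vehicle. Col9a2 rose further, from a mean of 1.17 ± 0.133 CPM at 3 µg/kg to 34.9 ± 19.3 CPM at 10 µg/kg (log2 fold change of 10 over 3 µg/kg 4.89 ± 0.42, edgeR adjusted p = 1.8e-10). Several genes that were not called at 3 µg/kg against vehicle rose over this step. Fgf21, the fasting hepatokine, had means of 0.383, 0.656 and 4.12 CPM with vehicle, 3 and 10 µg/kg (2.59 ± 0.51, edgeR adjusted p = 0.0026). Gpx2, a glutathione peroxidase of epithelia, had 0.0228, 0.158 and 1.39 CPM (2.89 ± 0.46, edgeR adjusted p = 0.00012). The other rises named were Marveld3, a tight junction protein, at 2.99 ± 0.26, edgeR adjusted p = 1.8e-10, Ap1m2, an adaptor of epithelial sorting, at 3.51 ± 0.44, edgeR adjusted p = 1.1e-06, St6galnac2, a sialyltransferase, at 2.91 ± 0.29, edgeR adjusted p = 7.9e-09, Cnksr1, a signalling scaffold, at 3.46 ± 0.36, edgeR adjusted p = 1e-08 and Ecel1, an endopeptidase-like protein, at 4.53 ± 0.68, edgeR adjusted p = 0.00015.

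Decreases over the same step included genes that had already fallen at 3 µg/kg and others that had not. Hao1 had means of 273, 96.0 and 17.1 CPM with vehicle, 3 and 10 µg/kg (log2 fold change of 10 over 3 µg/kg -2.49 ± 0.33, edgeR adjusted p = 4.1e-06). H2-Q1, a nonclassical class I gene with close paralogs (-1.57 ± 0.29, edgeR adjusted p = 0.00098), and Atp6v0d2, a proton pump subunit (-1.47 ± 0.29, edgeR adjusted p = 0.0028), had likewise fallen at 3 µg/kg against vehicle, at -1.59 and -1.44. Sult3a1 was not called at 3 µg/kg (log2 fold change -0.97 ± 0.42, edgeR adjusted p = 0.16) and fell from 3 to 10 µg/kg (-2.21 ± 0.44, edgeR adjusted p = 0.0033), as did Cyp2g1 (-1.59 ± 0.40, edgeR adjusted p = 0.041), Ube2u (-2.07 ± 0.48, edgeR adjusted p = 0.019) and St6galnac6 (-1.46 ± 0.15, edgeR adjusted p = 1e-08). Slc10a2 was higher at 3 µg/kg and lower again at 10 µg/kg, with means of 2.56 ± 0.508 CPM with vehicle, 6.86 ± 2.19 CPM at the lower dose of 1 µg/kg, 7.62 ± 3.85 CPM at 3 µg/kg and 2.65 ± 1.09 CPM at 10 µg/kg (-1.52 ± 0.33, edgeR adjusted p = 0.0074).

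Against the same vehicle livers, 154 genes (0.882%) were called at 1 µg/kg, beside the 519 at 3 µg/kg. The dose of 10 µg/kg gave 969 (5.55%), 666 of them higher (3.81%). The 3 comparisons share their vehicle livers. For Cyp1a2 the log2 fold changes were 3.34, 3.47 and 3.73 at 1, 3 and 10 µg/kg. For Serpina7 they were -3.99, -4.88 and -4.80, for Fasn -1.64, -1.81 and -2.24, and for H2-Aa 1.45, 2.27 and 1.76.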

How the data were processed

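Total RNA of mouse liver was prepared with a TruSeq RNA kit and sequenced as single-end reads, and counting by strand was not stated. The submitters' processing notes name FastQC 0.11.2, TopHat 1.4.1, SAMtools 0.1.19, HTSeq 0.6.1 and the build GRCm38. The authors trimmed and aligned the reads with TopHat, then counted them for each Ensembl gene with HTSeq. The deposited values are raw read counts per gene without normalization. Reads that aligned to several places were not counted, which lowers the counts of near-identical genes. The study pooled random samples for sequencing and the labels give no pools, so no within-pool values could be computed. Its own semi-parametric normalization was not repeated.

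Groups came from the dose in the labels. Of 39179 genes, the 17464 with more than 4 reads in any of the 45 samples were tested, and rows of unassigned reads were left out of library sizes. The share of reads with no feature was 10.8% to 12.7% with vehicle and 9.11% to 12.2% at 3 µg/kg, and the share of ambiguous reads 1.40% to 1.79%. edgeR 4.0.16 in R 4.3.3 fitted all 45 samples with TMM normalization, 1 coefficient per group and the quasi-likelihood test, with Benjamini-Hochberg adjustment over all genes. CPM are counts per 1000000 reads scaled by TMM. The labels describe the 5 mice of a group as biological replicates. Precision is lowest for genes with few reads, and counting intervals of read ratios are exact 95% intervals that cover counting error only. With 5 livers against 5, an exact two-sided permutation test of 1 gene cannot go below 0.007937. Simulated data with 100 genes changed 2.5-fold and 100 changed 4-fold among 16678 were recovered at 90% and 98% by edgeR, with 4 false calls. The changed genes were drawn only from genes above a floor of reads in the vehicle livers. The recovery therefore does not cover genes of low expression, which were common among the increases.

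Genes were named by 3 rules. The first takes the 12 largest increases and 12 largest decreases among DEGs with at least 10 reads on average and no overlap between groups. The second takes the called members of 47 functional and 12 marker lists, at most 6 in each direction by adjusted p, plus up to 3 well-known members. The third takes up to 8 called genes in each direction between neighbouring doses. Some genes that these rules take are not reported here. The comparison, the lists and these rules were chosen with earlier results of these data known. Gene names and positions are those of GENCODE M21 on GRCm38, which matched 17270 of the 17464 genes, and promoters are from RefSeq. Alternatives were other scalings, DESeq2 1.42.0, other filters, only the 2 groups, thinned libraries, other fold criteria and leaving out each liver. Tables were made with pandas 2.3.3 and scipy 1.17.1 in Python 3.11.15 and figures with matplotlib 3.10.9.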

Additional observations from a re-analysis of the deposited data

Results flagged for a closer look

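Dixon's criterion was applied in 86 groups of 5 livers, made from part of the named genes and part of the summed lists. The highest or lowest liver was compared with its nearest neighbour, and a gap of 0.71 of the range was required. By chance this singles out a liver in about 5% of groups. The other named genes and lists were not checked in this way. A liver can stand apart there too, as treated replicate 5 did for Apoa1 at 5142 CPM, next to 2730 CPM. In 9 of the 86 groups a liver stood apart, each at the high end. Among vehicle livers these were replicate 5 for Ovol1 at 0.0505 CPM and replicate 3 for Siglecf at 0.123 CPM, both being the vehicle livers that held any read of the gene. Vehicle replicate 1 was apart for Gm13021 at 2.41 CPM, next to 0.990 CPM, vehicle replicate 4 for Slc2a4 at 3.90 CPM, next to 1.34 CPM, and vehicle replicate 5 for the summed antigen presentation genes at 6383 CPM, next to 5285 CPM. Among treated livers, replicate 5 was apart for Fabp12 at 16.8 CPM, next to 6.80 CPM, and for the summed cell cycle genes at 499.5 CPM, next to 329 CPM. The cell cycle sum includes Ccnd1, whose single high value was also that of treated replicate 5. Replicate 1 at 3 µg/kg was apart for the T cell markers at 5.11 CPM, next to 3.33 CPM, and for the neutrophil markers at 14.4 CPM, next to 3.50 CPM. The decreases of Gm13021 and Slc2a4 and the increases of Ovol1, Siglecf and Fabp12 kept their calls with each of the 10 livers left out.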

How the results depend on the processing

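No paired analysis was possible because the labels number no replicates and each liver is from a different mouse, so the numbers used here only name the livers. A fold change of 1.5 in place of 2 gave 887 DEGs, 588 higher and 299 lower. Testing against a fold change of 1.5 with glmTreat gave 218, 162 higher and 56 lower, 3 between 3 and 1 µg/kg and 29 between 10 and 3 µg/kg. Thinning all libraries to the smallest gave 456 DEGs against vehicle and 11 between 3 and 1 µg/kg. Leaving out 1 liver at a time gave 392 to 522 DEGs against vehicle, 248 to 389 higher and 100 to 147 lower, 9 to 18 between 3 and 1 µg/kg and 53 to 88 between 10 and 3 µg/kg. The lowest count of higher calls, 248, came without replicate 1 at 3 µg/kg. Between 3 and 1 µg/kg the count fell to 9 without replicate 4 at 1 µg/kg, to 10 without replicate 2 at 3 µg/kg and to 11 without replicate 3 at 1 µg/kg. DESeq2 called 574 genes, 423 higher and 151 lower, and fitting only the 2 groups gave 571. Of the 127 genes that the naming rules take and that were called, 87 kept their call with each of the 10 livers left out, 125 were called by DESeq2, 114 after thinning and 96 without replicate 1 at 3 µg/kg, and 0 changed direction under these settings. Depth limits the genes under 1 CPM. Setting genes with a group at 0 reads to a bound of 3 reads, and leaving out genes with no more than 3 reads in either group, moved the list median from 0 to -1.25 for pancreatic acinar markers, from -0.61 to -1.13 for adipocyte markers and from 0.21 to 0.07 for purine breakdown.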

Other observations

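The genes in this paragraph were chosen after their values were seen. Natural killer cell receptor genes were among the increases at 3 µg/kg. Of 24 tested genes of the Klr family 9 rose and 0 fell, beside 2.15% of all genes called higher, with a median log2 fold change of 1.41, and without replicate 1 at 3 µg/kg 6 were called. Their summed level ranged from 4.20 to 7.78 CPM with vehicle and was 24.3, 11.6, 14.7, 13.5 and 18.1 CPM in the treated livers, each above all vehicle livers. Klrd1, the CD94 chain of inhibitory and activating receptors, measured 0.991, 0.572, 0.616, 0.371 and 0.505 CPM with vehicle and 2.41, 1.24, 2.21, 1.03 and 1.25 CPM at 3 µg/kg (log2 fold change 1.41 ± 0.32, edgeR adjusted p = 0.004). Ncr1, the activating receptor NKp46, measured 0.212, 0.191, 0.0616, 0.433 and 0.152 CPM with vehicle and 1.10, 0.455, 0.841, 0.773 and 1.03 CPM at 3 µg/kg (log2 fold change 1.95 ± 0.45, edgeR adjusted p = 0.0046). Of 7 Schlafen (Slfn) genes 3 rose, and without replicate 1 edgeR called 0.

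Noncoding RNAs of the imprinted Dlk1-Meg3 domain on chromosome 12 were lower, also chosen after their values were seen. Meg3 measured 6.16, 5.40, 9.37, 2.04 and 14.2 CPM with vehicle and 1.75, 1.80, 2.28, 1.80 and 1.09 CPM at 3 µg/kg (log2 fold change -2.10 ± 0.38, edgeR adjusted p = 0.00015), and Rian measured 4.32, 3.31, 4.07, 1.36 and 10.01 CPM with vehicle and 1.02, 1.20, 1.19, 1.87 and 0.450 CPM at 3 µg/kg (log2 fold change -2.05 ± 0.46, edgeR adjusted p = 0.0026). Mirg was at -1.96 (edgeR adjusted p = 0.093) in log2 and was not called. Among the metabolic genes outside the lists, Khk, which phosphorylates fructose, fell, ranging from 332 to 520.0 CPM with vehicle and 132 to 217 CPM at 3 µg/kg (log2 fold change -1.24 ± 0.17, edgeR adjusted p = 8.4e-07), Gpd2, the mitochondrial glycerol phosphate dehydrogenase, from 30.8 to 49.4 CPM with vehicle and 12.8 to 19.9 CPM at 3 µg/kg (log2 fold change -1.37 ± 0.17, edgeR adjusted p = 1.1e-07) and Lepr, the leptin receptor, from 7.88 to 14.5 CPM with vehicle and 2.38 to 3.50 CPM at 3 µg/kg (log2 fold change -1.82 ± 0.34, edgeR adjusted p = 0.00026). Ucp2, a mitochondrial carrier of macrophages and other cells, rose, ranging from 20.7 to 34.0 CPM with vehicle and 95.7 to 124 CPM at 3 µg/kg (log2 fold change 1.99 ± 0.31, edgeR adjusted p = 1.2e-05), and Notch1 from 10.4 to 17.1 CPM with vehicle and 27.4 to 52.8 CPM at 3 µg/kg (log2 fold change 1.39 ± 0.23, edgeR adjusted p = 3.3e-05). The collagen genes Col4a3 and Col4a4, neighbours on chromosome 1 that encode chains of specialized basement membranes, rose at log2 fold change 4.79 ± 0.56, edgeR adjusted p = 4.7e-08 and log2 fold change 3.86 ± 0.45, edgeR adjusted p = 4.7e-08. Of 20 Mup genes, Mup12 rose (log2 fold change 1.73 ± 0.43, edgeR adjusted p = 0.0086) while Mup3 fell, and the median log2 fold change of the family was 0.22. Their summed level, most of which was Mup3, was 2130 to 4096 CPM with vehicle and 653 to 1149 CPM at 3 µg/kg.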
